A study of Mus musculus with 2 samples.

Results

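The natriuretic peptide genes and the genes that read and process their products were examined in the accessible chromatin of the mouse heart. The set holds 7 genes of 21911 protein-coding genes: the peptide genes Nppa, Nppb and Nppc, the receptor genes Npr1, Npr2 and Npr3, and the protease gene Corin. They were taken by name in the GENCODE M21 annotation of mm10, and each locus was the gene body plus 50 kb either side. Chromatin came from whole heart tissue of male B6CASTF1/J mice, an F1 hybrid strain, at 14 days of age. There was 1 group of 2 biological replicates, with no treatment and no second age, sex or tissue, so there was no contrast to test and no p-value is given. The label of replicate 1 names 3 males, that of replicate 2 names no number of mice, and both cite the same donor record, so the SDs below measure only the spread between these samples, which may be technical. The assay was DNase-seq, which maps where the nuclease DNase I can cut DNA in nuclei. Peaks mark stretches that are cut often, and footprints are short protected stretches, most of them in or touching peaks.

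Atrial and B-type natriuretic peptide, made from Nppa and Nppb, are hormones that heart muscle cells release when the wall is stretched, and C-type natriuretic peptide, made from Nppc, acts mostly near where it is secreted. Npr1 and Npr2 encode receptors with a guanylyl cyclase inside the cell that makes cyclic GMP, the first for the atrial and B-type peptides and the second for the C-type peptide. Npr3 encodes the clearance receptor, which has no cyclase and removes the peptides, and Corin encodes the membrane protease of heart muscle that cuts the atrial peptide precursor. In mice Nppa is strongly expressed in the atria and falls in the ventricles around birth.

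In mm10 the peptide genes lie as Nppa (ENSMUSG00000041616) at chr4:148000722-148002079 on the plus strand, Nppb (ENSMUSG00000029019) at chr4:147985788-147987205 on the plus strand, and Nppc (ENSMUSG00000026241) at chr1:86666291-86670571 on the minus strand. The receptor genes are Npr1 (ENSMUSG00000027931) at chr3:90450591-90465866 on the minus strand, Npr2 (ENSMUSG00000028469) at chr4:43631935-43651244 on the plus strand, and Npr3 (ENSMUSG00000022206) at chr15:11839896-11907287 on the minus strand. The protease gene is Corin (ENSMUSG00000005220) at chr5:72300025-72504473 on the minus strand.

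Peaks of the larger deposited set numbered 114 in the member loci in replicate 1 and 101 in replicate 2, of 143122 and 125118 peaks in all. The signal of a peak is its height on the authors' read-depth scale, and without read totals the depth behind a peak is unknown. Weak signals were whole multiples of a step of 0.00709 in replicate 1 and 0.00597 in replicate 2, and weak peaks are therefore also given in steps. All 5 heart muscle markers and all 4 ventricular markers checked had a promoter peak in both replicates, 2 of 5 atrial markers did, and neither liver marker did, where 68.8% of all protein-coding genes did. Of the atrial markers, Myl4 had 20.2 and 17.4 in replicates 1 and 2, Nr2f2 had 1.34 and 1.84, Myl7 had a peak in replicate 1 alone, at 0.745, and Sln and Bmp10 had none. In whole tissue, few cells with an open site and a weak opening in many cells cannot be told apart.

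The DNA that carries the results is shown first, in GRCm38.p6 (the assembly of mm10), 5′ to 3′. The accessible stretch upstream of Nppa, chr4:148000240-148000433 on the plus strand, is shown because it is the only promoter peak of that gene, and capitals mark the footprints of replicate 1, since replicate 2 had none there. The 250 bases just upstream of the RefSeq start of Nppa, chr4:148000472-148000721 on the plus strand, are shown because no peak covers them, and there capitals mark the motif matches named below.
Nppa promoter peak: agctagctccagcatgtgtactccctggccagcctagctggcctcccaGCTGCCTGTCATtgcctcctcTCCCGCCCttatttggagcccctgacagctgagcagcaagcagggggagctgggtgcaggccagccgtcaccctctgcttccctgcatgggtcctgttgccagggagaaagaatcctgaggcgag
Nppa proximal promoter: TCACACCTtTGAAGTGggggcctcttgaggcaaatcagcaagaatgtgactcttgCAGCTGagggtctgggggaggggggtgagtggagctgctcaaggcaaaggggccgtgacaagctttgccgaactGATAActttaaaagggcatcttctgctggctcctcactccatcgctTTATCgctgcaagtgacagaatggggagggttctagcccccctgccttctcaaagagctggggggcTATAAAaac

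The main promoter peak of Nppb and the regions on either side of the Nppa and Nppb pair are shown because they hold footprints shared by both replicates, and capitals mark the bases that the shared footprints of both cover. The first lies at chr4:147985301-147985480, the second at chr4:147960261-147960460 upstream of Nppb, and the third at chr4:148008501-148008680 in an intron of Clcn6 downstream of Nppa, all on the plus strand.
Nppb promoter peak: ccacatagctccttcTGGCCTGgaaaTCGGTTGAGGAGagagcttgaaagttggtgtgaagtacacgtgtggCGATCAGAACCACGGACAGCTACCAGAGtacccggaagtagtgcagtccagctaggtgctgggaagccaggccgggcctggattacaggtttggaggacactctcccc
Upstream flank: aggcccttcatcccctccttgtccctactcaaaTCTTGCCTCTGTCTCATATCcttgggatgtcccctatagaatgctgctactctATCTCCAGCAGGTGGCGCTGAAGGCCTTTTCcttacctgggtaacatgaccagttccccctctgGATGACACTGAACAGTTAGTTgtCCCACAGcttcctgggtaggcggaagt
Downstream flank: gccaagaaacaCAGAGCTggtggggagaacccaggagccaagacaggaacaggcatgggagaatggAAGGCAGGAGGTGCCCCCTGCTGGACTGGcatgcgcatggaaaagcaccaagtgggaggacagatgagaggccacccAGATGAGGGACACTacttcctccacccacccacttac

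All 7 members had a promoter peak in both replicates, where 68.8% of all protein-coding genes did, 70.4% in replicate 1 and 70.0% in replicate 2. A promoter was 1 kb either side of any annotated start, and its signal was that of the highest peak in it. The signals were low for open promoters: the median of the 7 was 1.81, against a median of 6.60 and quartiles of 2.56 and 11.5 over the 15069 genes with a peak in both. Low signals were not particular to the members. The 24 open genes of the 31 cell type markers checked had a median of 2.41, and the 5 heart muscle markers had one of 2.36. Only Nppc and Npr2 had a mean above the lower quartile. The order of the means, from the lowest, was Nppa, Corin, Npr3, Nppb, Npr1, Nppc and Npr2. Nppa stood below Corin, and Corin below Npr3, in both replicates. Nppb stood above Npr3 in both replicates, with 2.21 against 1.42 in replicate 1 and 1.41 against 1.40 in replicate 2, although its replicate 2 value fell between both values of Npr3. Npr1 lay within the spread of Nppc, whose spread overlapped that of Npr2, but Npr1 stood below Npr2 in both replicates.

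**Figure D1:**
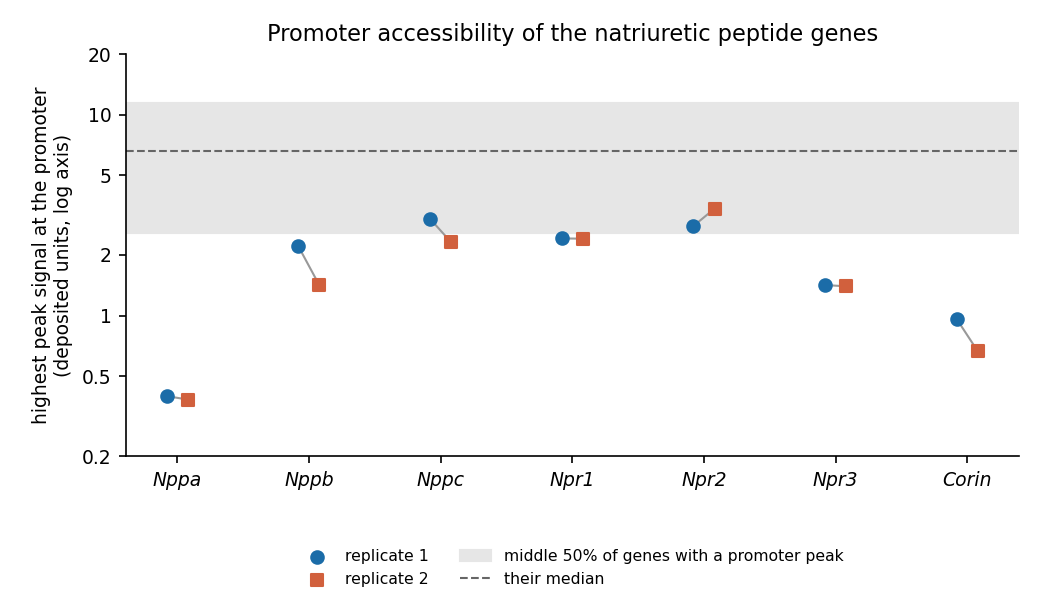
Highest promoter peak signal of each member on a log axis, with replicate 1 as circles and replicate 2 as squares. The grey band spans the quartiles, 2.56 and 11.5, and the dashed line the median, 6.60, of the genes with a promoter peak in both replicates, and Nppa is the lowest member in each replicate.

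Of the ligands, Nppa had a single promoter peak, and it stopped short of the gene. Its signal was 0.397 in replicate 1 and 0.382 in replicate 2, a mean of 0.390 ± 0.01 (SD, n = 2) at percentile 2.25 of the open genes. The peak of replicate 1 lay 482 to 289 bases upstream of the start and that of replicate 2, 415 to 325 bases upstream, stood wholly inside it. They reached 56 and 64 steps. The start base was not in a peak, and no base within 1 kb of it was listed with a false discovery rate (FDR) under 0.05 beyond 193 bases in replicate 1 and 91 in replicate 2. The lowest FDR there was 8.14e-04 and 1.90e-02. The gene body held no peak of both replicates, and a peak of 0.319 at its 3′ end, 1.28 kb from the start, was called in replicate 1 alone. The Nppa promoter peak was absent from the smaller deposited peak set, in which the other 6 members kept a peak and 65.3% of all genes had one. All 7 stayed open with a promoter window of 500 bp, where 67.2% of genes did, with 2 kb, where 71.0% did, with the 5′ end of the gene alone, where 64.2% did, and with only peaks that touch 1 promoter, where 58.6% did.

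Inside this peak the letters of the SRF CArG box, the sequence bound by serum response factor in muscle genes, began at base 148000315, and 1.37% of the 104208 windows of 300 bases about the middle of all shared regions hold such a match. The match overlapped a footprint of replicate 1 by its first bases, and replicate 2 had no footprint in the peak. The KLF or SP letters GGGCGG, on the minus strand, overlapped the box, and 23.6% of windows hold them. The peak also held 2 copies of the E-box, written CAGCTG, of which the first overlapped the other footprint of replicate 1. The proximal promoter printed above, which no peak covered, held the TBX letters AGGTGTGA on its minus strand, at -250 to -243 from the start, then the NKX2-5 letters TNAAGTG at -241 to -235. An E-box followed at -195, GATA letters, GATAA, at -121 and, on the minus strand, at -75, and the letters TATAAA at -9. Of 32851 RefSeq promoters of the same length, 1.28% hold the TBX match, 11.5% the NKX2-5 match and 25.4% a GATA match, while 16.3% hold an E-box and 13.6% the TATA letters. These matches are letters in the reference sequence, and binding was not measured.

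Nppb, the neighbour of Nppa on the same strand, had 2 promoter peaks in each replicate. The upstream one reached 2.21 in replicate 1 and 1.41 in replicate 2, a mean of 1.81 ± 0.56 (SD, n = 2) at percentile 19.7 of the open genes. It ended 308 bases before the start and held 3 shared footprints in each replicate, of which the 47 bases common to both replicates are the capitals above. A footprint was called shared where footprints of the other replicate covered at least 50% of its length. None of the motifs searched overlapped those footprints, and the ETS letters CCGGAAG lay within 10 bases of the longest one. The second peak covered the GENCODE start, at 0.631 and 0.472 or 89 and 79 steps. Neither replicate had a footprint inside its own peak there.

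That weaker peak held letters of muscle and heart factors. RefSeq places the start of Nppb 112 bases downstream of the GENCODE start used here, and a stretch of 27 bases, chr4:147985795-147985821 on the plus strand, lay 105 to 79 bases before the RefSeq start. Its capitals mark, from the left, a match to the TEAD letters CATTCC on the minus strand, an E-box, a GATA match that overlaps the E-box by 1 base, and a second GATA match.
Nppb element: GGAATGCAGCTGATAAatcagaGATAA

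Neither replicate had a footprint on these letters. Of the RefSeq promoters, 14.7% hold a TEAD match. At the start base of GENCODE the FDR was 1.40e-02 in replicate 1 and 6.25e-03 in replicate 2, weaker than the lowest in the same promoter, 3.04e-09 and 7.87e-11. At both cardiac peptide genes, then, the highest promoter signal lay upstream of the proximal elements and not on them.

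Nppc had the highest promoter signal of the ligands in the window of 1 kb. Its highest peak lay inside the gene, 791 to 970 bases downstream of the start in replicate 2, with signals of 3.03 and 2.32, a mean of 2.67 ± 0.50 (SD, n = 2), and 3 shared footprints in each replicate. The peak on the start itself had 1.84 and 1.68 and no shared footprint. Within 500 bp of the start the promoter value of Nppc was thus 1.76, near the 1.81 of Nppb. The replicates differed in order: Nppc was lower in replicate 1, at 1.84 against 2.21, and higher in replicate 2, at 1.68 against 1.41. The upstream part of the start peak, chr1:86670572-86670700 on the minus strand, is shown because it differs in composition from the cardiac pair.
Nppc start peak: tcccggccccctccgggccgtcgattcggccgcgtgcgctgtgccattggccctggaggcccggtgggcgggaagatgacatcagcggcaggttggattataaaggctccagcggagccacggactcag

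It held GGGCGG, which 35.7% of RefSeq promoters hold, and then TATAAA before the start, neither in a shared footprint. The ratio of observed to expected CpG over 500 bases either side of the start was 0.72 at Nppc, against 0.55 for the median gene, while Nppa had 0.27 and Nppb 0.31. Around the Nppc start 1236 and 1248 of 2001 bases were listed with an FDR under 0.05, against 464 and 509 at Nppb.

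Among the receptors, Npr1 had a row of peaks around its start. Npr1, the receptor of the cardiac peptides, had a peak over its start of 2.42 in replicate 1 and 2.41 in replicate 2, a mean of 2.41 ± 0.005 (SD, n = 2). Further peaks stood upstream, at 2.34 and 1.48 about 695 to 894 bases before the start, and downstream, at 1.07 and 1.06, and a peak of 1.01 between the start and the upstream peak was called in replicate 1 alone. The start peak held 2 matches of GGGCGG in shared footprints, at 90465915 and 90465921, and the CpG ratio of 0.83 was the highest of the 7. The upstream peak held a GATA match that a footprint touched, though not a shared one.

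Npr2, the receptor of the C-type peptide, had its highest promoter peak 235 to 614 bases upstream in replicate 2, with 2.79 and 3.40, a mean of 3.09 ± 0.43 (SD, n = 2). It was the only member whose promoter signal was higher in replicate 2 than in replicate 1. Its peak overlaps the annotated miRNA gene Gm25262 and the antisense gene Gm12473, and accessibility carries no strand, so it cannot be assigned to Npr2 alone. It held 5 matches of GGGCGG, of which 2 overlapped shared footprints of replicate 1 and none those of replicate 2. A footprint of replicate 2, 41 bases long, also overlapped these 2 matches. It did not count as shared because only 26.8% of its length was covered by footprints of replicate 1. A weaker region ran over the start, at 0.809 and 0.836, and the start base itself was in a peak of replicate 1 only. Past 1.5 kb into the gene no shared region was found, and 5 peaks of 0.113 to 0.131, 19 to 22 steps, were called there in replicate 2 alone.

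Npr3, the clearance receptor, had a row of weak regions around its start. Its value was 1.42 in replicate 1 and 1.40 in replicate 2, a mean of 1.41 ± 0.02 (SD, n = 2), from a peak 253 to 74 bases upstream that overlaps an exon of the noncoding gene Gm5144. Of its shared regions 5 touched the windows of its 5 annotated starts, and the next began 2.95 kb into the gene. From the start inward the other promoter regions had 0.525 and 0.776, 1.36 and 1.20, 1.06 and 1.04, and 1.10 and 1.06. The GENCODE start base lay in none of these regions, nor in the upstream peak. RefSeq places the start 84 bases upstream of it, at 11907371, where the upstream peak covers it in both replicates. The first run of capitals below borders a tract of AAG repeats just upstream, and whether the repeat affects the calls was not tested. The part of the upstream peak outside the exon, chr15:11907465-11907540 on the minus strand, is shown with its shared footprints in capitals. It is shown because that peak had the most shared footprints of the locus, 5 in replicate 1 and 3 in replicate 2.
Npr3 upstream peak: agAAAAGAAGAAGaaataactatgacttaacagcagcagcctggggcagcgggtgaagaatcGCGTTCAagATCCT

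Corin had a broad and weak promoter. Its single peak had 0.957 in replicate 1 and 0.662 in replicate 2, a mean of 0.81 ± 0.21 (SD, n = 2) at percentile 8.91 of the open genes. It extended 600 bases in replicate 1 and 743 bases in replicate 2, began 53 and 10 bases inside the GENCODE start, and so lay downstream of it in both. Replicate 1 had 8 footprints in it and replicate 2 had 5, of which 1 and 2 were shared. When the weaker 50% of peaks were set aside in each replicate, Corin and Nppa lost their promoter peak and the other 5 members kept theirs, as did 62.3% of all genes. The GENCODE start base was in a peak of both replicates at Nppb, Nppc and Npr1, 3 of the 7 members. It was so at 43.6% of all genes and 63.4% of open genes. The list depends on the annotation: the RefSeq start of Nppb lay in a peak of replicate 2 only, and that of Npr3 in a peak of both.

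**Figure D2:**
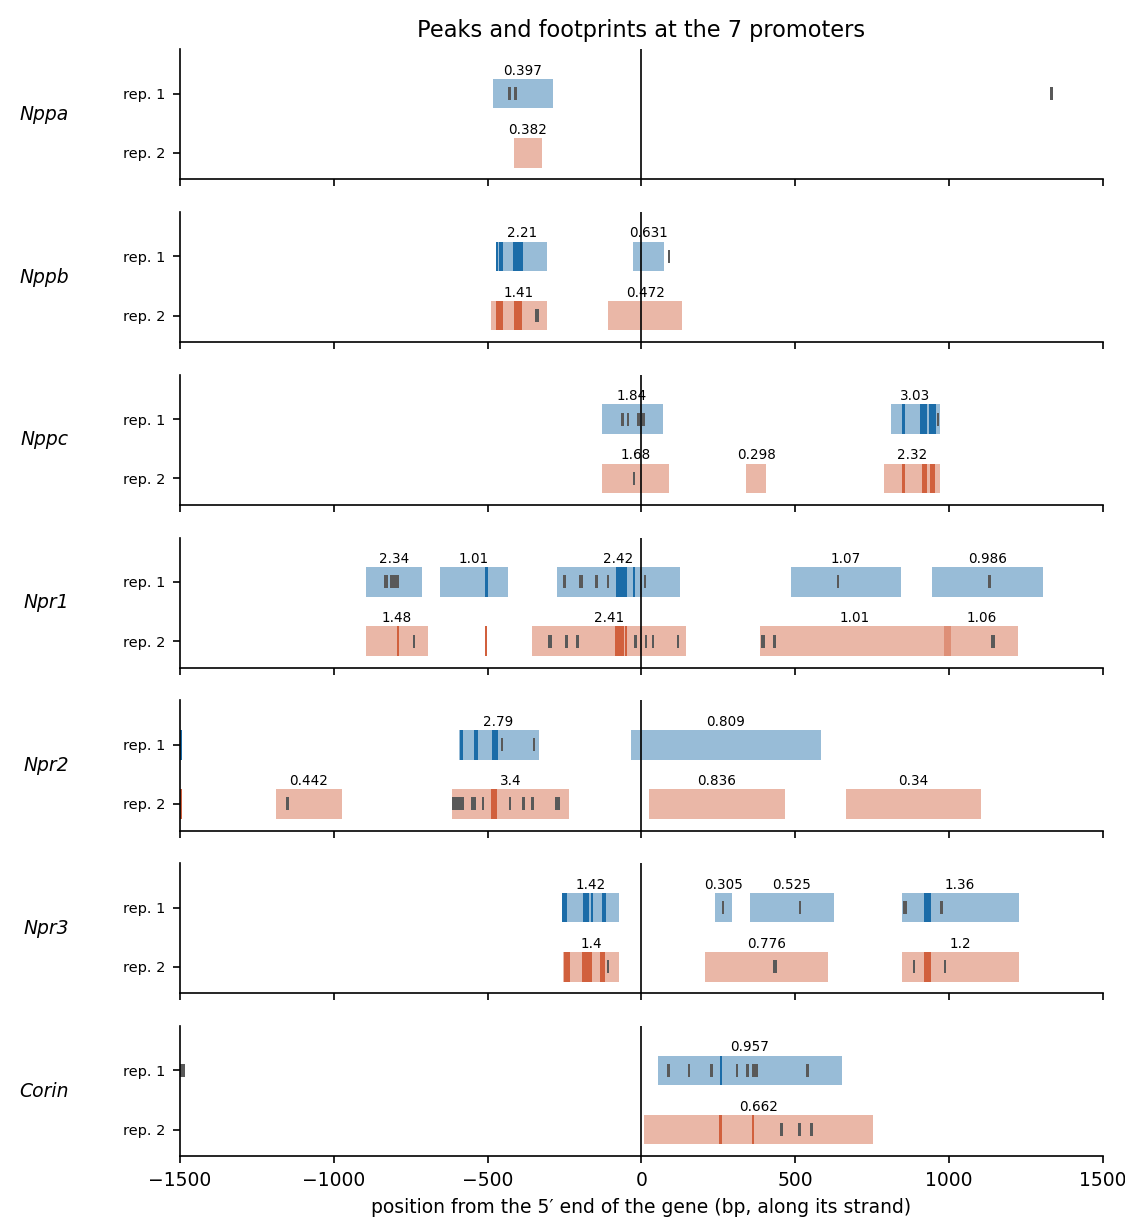
Peaks (pale bars, with their signal) and footprints (dark marks; full height and in colour where shared by both replicates, short and grey where not) against position in bp from the 5′ end of each member (vertical line), replicate 1 above replicate 2. The peaks of Nppa, and the stronger ones of Nppb, lie upstream of the start, that of Corin lies downstream, and Npr1 and Npr3 have several.

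The 7 genes lie in 6 separate loci of 927.0 kb in all, since Nppa and Nppb share one, and these held 129 merged regions, of which 78, or 60.5%, had a peak in both replicates, where 65.9% of all merged regions did. Of the 78, 16 touched a member's promoter, 21 the promoter of another gene, and 41 lay outside promoters. Those 41 lay 5 in exons, 15 in introns and 21 between genes. Of all shared regions, a smaller share, 26.9%, touched a promoter of a protein-coding gene, and the member loci are centred on genes. Outside promoters 41 of 78 merged regions were shared, or 52.6%, where 62.6% of all such regions were. The median signal of all 78 shared regions was 1.19 against 0.991 over all shared regions, which hold a smaller share of promoters. For the 41 outside promoters it was 0.759 against 0.831. Bases with an FDR under 0.05 made up 4.15% and 4.16% of the loci in replicates 1 and 2, against 1.61% and 1.48% of the genome. Npr1 had the highest share, 8.88% and 8.53%, and Corin the lowest, 1.31% and 0.90%. The genome also takes in stretches far from any gene, so its share is not a like comparison. Among the loci of all protein-coding genes, the counts of shared regions ran from percentile 43.6 at Corin to 81.3 at Npr2. Outside promoters they ran from 43.9 at Npr1 to 80.8 at Nppb, with Corin at 66.1. These counts were not scaled to the length of the locus.

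**Figure D3:**
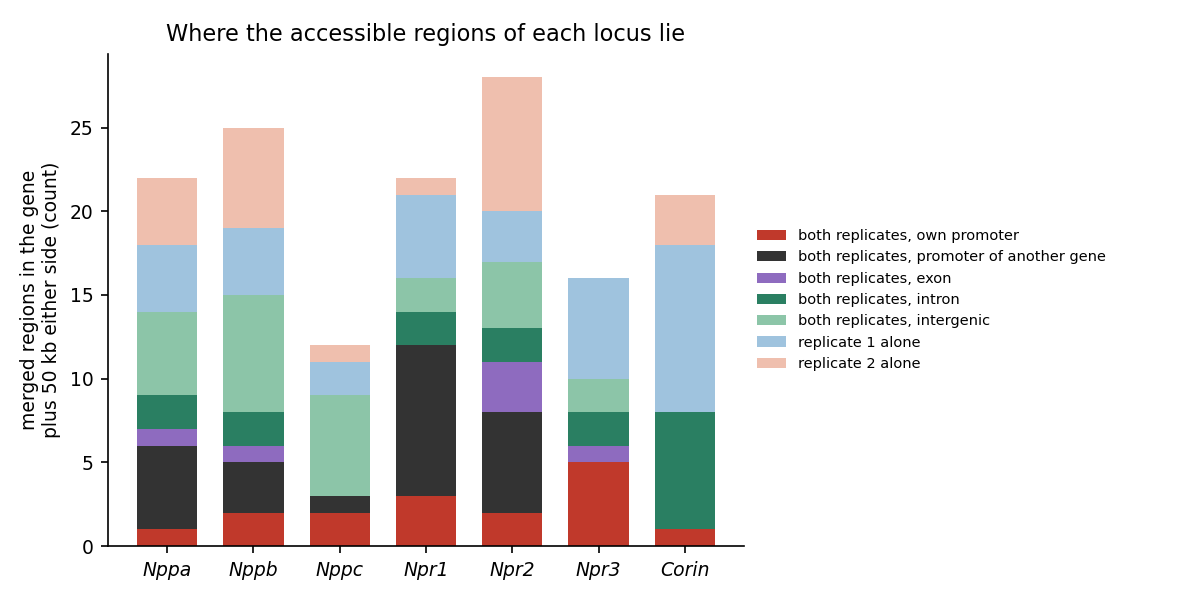
Merged accessible regions in each member's gene body plus 50 kb either side, as stacked counts by whether both replicates had a peak and by annotation. Most shared regions of Npr1 and several of Npr2 are promoters of other genes, those of Corin are intronic but for its promoter, and Nppa and Nppb share most of their regions.

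Within 50 kb of Nppb the strongest regions belonged to other genes. The promoter of Plod1, a collagen lysyl hydroxylase, had 7.88 in replicate 1 and 7.91 in replicate 2, and that of 2510039O18Rik had 6.13 and 4.28. An intergenic region between these promoters, 47.3 kb upstream of Nppb, had 2.77 and 2.07. From the 2510039O18Rik gene through Clcn6, an ion transporter of endosomes, the strongest regions outside promoters were the upstream flank printed above, at 3.16 and 2.86, 25.3 kb before the Nppb start, and the downstream flank, at 2.43 and 1.78, 7.78 kb past the Nppa start. Each had a higher mean than either peptide promoter.

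Both flanks held a match to the CTCF consensus, the sequence of an insulator protein that anchors chromatin loops, and in both it lay in a footprint of each replicate. The upstream match began at 147960351 on the plus strand and the downstream match at 148008579 on the minus strand, so their letters face each other over 48.2 kb, with both peptide genes and 7 shared regions between them. In the printed upstream flank the footprint over the match is the second run of capitals, and in the downstream flank it is the longest. A further plus-strand match, at 147953717, lay in a weaker region of 1.09 and 0.519. Of the 41 shared regions outside promoters in the member loci, 5 had a CTCF match in a shared footprint, or 12.2%, and 6.45% of the 76148 such regions in the genome did. The other 2 were in the Nppc and Npr2 loci. The first lay 20011 bases downstream of the Nppc start, at 1.83 and 1.99. The second lay in an intron of Tmem8b, 40.2 kb downstream of the Npr2 start, at 9.06 and 7.28. Looping was not measured.

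**Figure D4:**
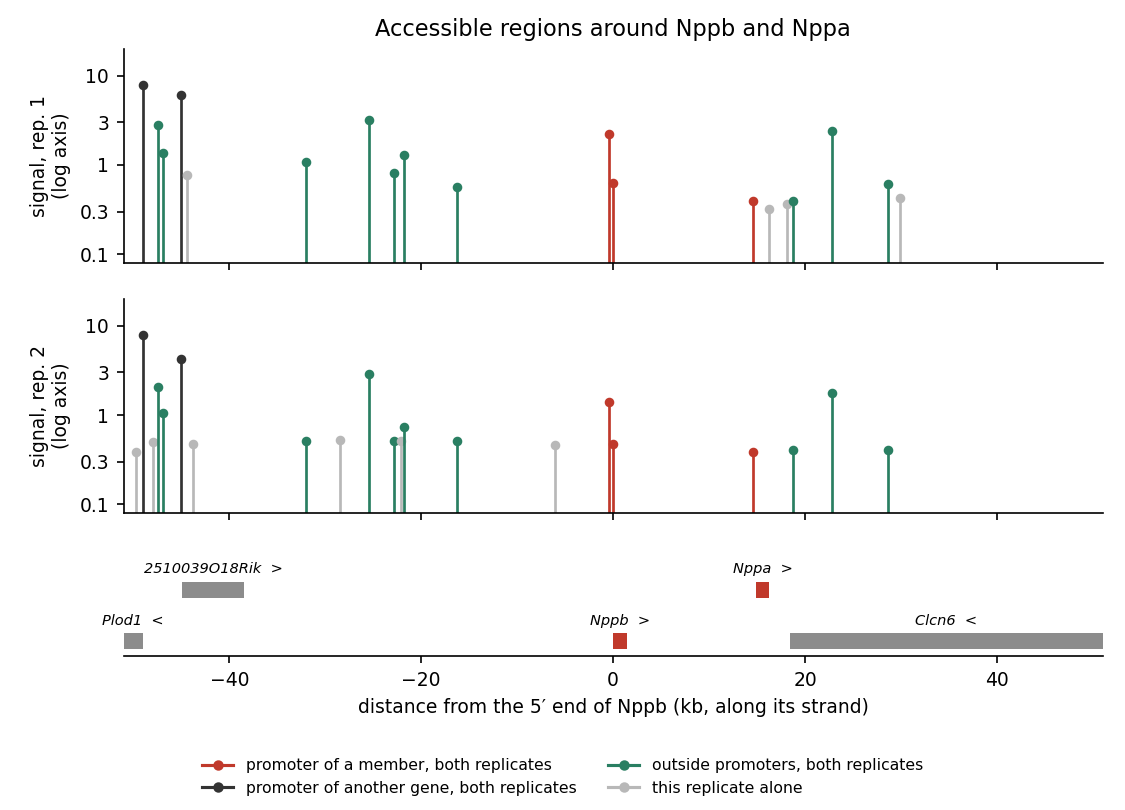
Peak signal of each merged region within 50 kb of Nppb, which takes in Nppa, on a log axis, replicate 1 above and replicate 2 in the middle, against distance from the 5′ end of Nppb, with the protein-coding genes at the bottom (> same strand as Nppb, < opposite). The Nppa promoter, 0.397 and 0.382, is lower than the regions at either flank of the gene pair.

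The remaining regions between the 2 genes and their neighbours were weaker. Upstream of Nppb, 4 more shared intergenic regions lay 16.1 to 31.9 kb from its start, and the strongest of them by mean, 21.7 kb upstream, had 1.29 and 0.728 with no shared footprint. In the 14.5 kb from the Nppb start to the Nppa promoter peak no other shared region was called. An NKX2-5 match, at 147953739 to 147953745, overlapped only the edge of the shared footprint that covers the CTCF match at 147953717. That footprint ended at 147953741 in replicate 1 and at 147953742 in replicate 2. Counting any overlap, 1.28% of the 78 shared regions had an NKX2-5 match in a shared footprint, as 1.19% of all shared regions did. No GATA, TBX, MEF2, SRF or TEAD match lay in a shared footprint of the 78, but few did anywhere: 1.67%, 0.071%, 0.548%, 0.212% and 2.27% of all shared regions had one, in that order.

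Around the other members, promoters of neighbouring genes were again the strongest regions near Npr1, Npr2 and Nppc. Near Npr1, the promoters of Ints3, a subunit of the Integrator complex, at 24.1 and 17.2, Chtop, at 22.8 and 17.2, Snapin, at 13.3 and 10.2, and Ilf2, at 10.1 and 7.87, were all higher than any Npr1 peak. The strongest region there outside promoters lay between genes 19.1 kb downstream of the Npr1 start, with 8.32 in replicate 1 and 8.22 in replicate 2. It is shown, chr3:90446581-90446800 on the minus strand, because it held 5 shared footprints in each replicate, in capitals, and 3 matches of GGGCGG in them.
Npr1 downstream region: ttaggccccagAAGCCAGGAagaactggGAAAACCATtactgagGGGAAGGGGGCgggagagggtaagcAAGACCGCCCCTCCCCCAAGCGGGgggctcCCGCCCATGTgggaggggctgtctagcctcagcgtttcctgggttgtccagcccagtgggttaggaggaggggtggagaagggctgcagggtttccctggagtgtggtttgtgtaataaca

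Near Npr2, the promoters of Hint2, a mitochondrial protein, at 9.59 and 7.01, and of Fam221b and Tmem8b, at 7.82 and 7.58, were the strongest besides the intron region of Tmem8b. A region 1.48 kb upstream of the Npr2 start, outside the promoter window, had 4.28 and 2.68 and 4 and 5 shared footprints, more signal than the Npr2 promoter in replicate 1 and less in replicate 2. Near Nppc, the promoter of Dis3l2, an RNA exonuclease, had 4.79 and 4.30, and an intergenic region 4.67 kb upstream had 2.33 and 1.53. By mean it did not separate from the CTCF region 20011 bases downstream, which had 1.83 and 1.99 and was the higher in replicate 2.

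Npr3 and Corin had no promoter of another protein-coding gene in their loci that was open in both replicates, though 4 of the Npr3 promoter regions also lay within 1 kb of a start of the noncoding gene Gm5144. Corin, 204.0 kb long, had 7 shared regions in its introns besides its promoter and none in the flanks. The strongest were 50.5 kb and 92.1 kb into the gene, at 0.986 in replicate 1 and 0.686 in replicate 2, and at 0.986 and 0.680, each above the promoter in both replicates by less than the replicate SD. All 8 shared regions lay in the lower 50% of peaks by signal in at least one replicate. Of 21 merged regions in the locus, 8 were shared, 10 were called in replicate 1 alone and 3 in replicate 2 alone, and with replicate 1 alone there would be 18.

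Both of the strongest Corin introns are shown, on the minus strand, because they held letters of heart and hormone factors. The first, chr5:72412081-72412340, had 2 GATA matches and 1 match to the steroid receptor consensus, which 1.07% of windows about all shared regions hold, and its shared footprints are in capitals, away from these letters. The second, chr5:72453781-72453960, had 1 TBX match, which 0.864% of windows hold, and no shared footprint.
Corin intron region 1: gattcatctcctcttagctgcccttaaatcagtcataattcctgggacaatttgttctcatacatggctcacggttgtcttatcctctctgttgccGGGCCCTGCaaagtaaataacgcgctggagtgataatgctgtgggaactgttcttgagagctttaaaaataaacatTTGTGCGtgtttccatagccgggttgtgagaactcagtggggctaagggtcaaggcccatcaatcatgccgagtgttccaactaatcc
Corin intron region 2: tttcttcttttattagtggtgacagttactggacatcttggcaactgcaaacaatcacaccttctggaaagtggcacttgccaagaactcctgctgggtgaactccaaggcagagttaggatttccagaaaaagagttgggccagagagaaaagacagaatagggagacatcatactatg

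Within Npr3, which is 67.4 kb long and has no protein-coding neighbour in its locus, intron regions 28.6 and 44.2 kb from the start had 0.553 and 0.328, and 0.404 and 0.293. A pair 103 and 105 kb from the start, past the 3′ end, had 0.383 and 0.328, and 0.411 and 0.442. A further 6 regions were called in replicate 1 alone and none in replicate 2 alone.

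**Figure D5:**
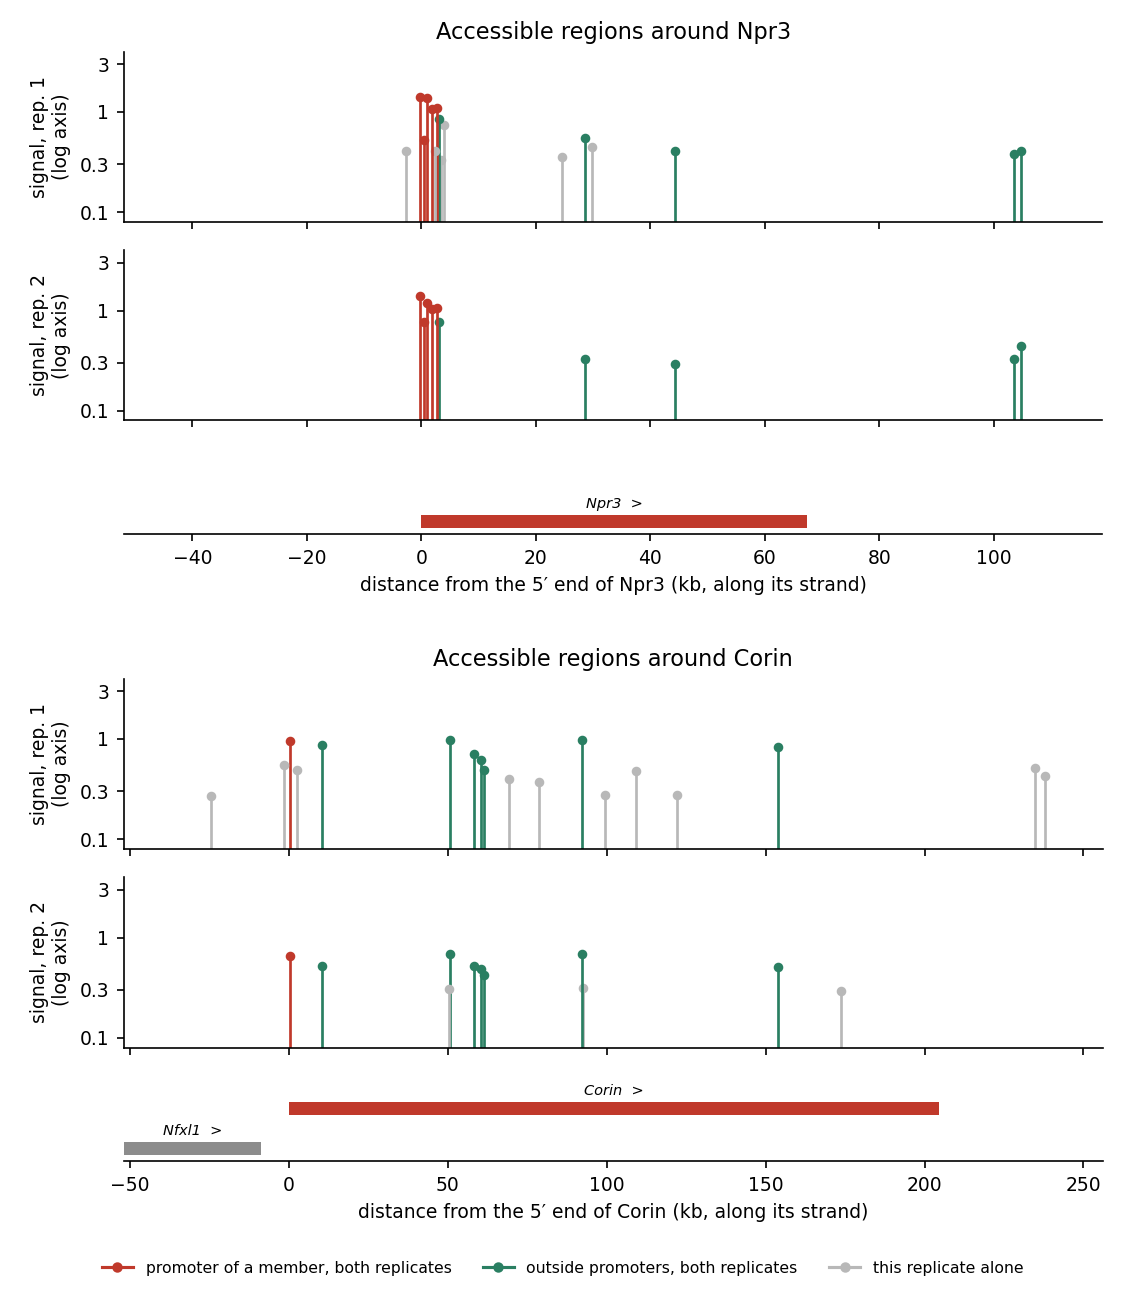
Peak signal of each merged region around Npr3 (upper panels) and Corin (lower panels) on log axes, replicate 1 above replicate 2, against distance from the gene's 5′ end, with protein-coding genes below. Npr3 signal gathers at its 5′ end, while Corin has shared regions spread through its introns between 0.424 and 0.986.

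Footprints in the loci numbered 297 in replicate 1 and 273 in replicate 2. Of these 133, or 44.8%, and 140, or 51.3%, were shared, where 49.6% and 54.0% of all footprints were. The counts include footprints outside peaks: 85.9% and 83.9% touched a peak, where 88.7% and 87.1% of all footprints did. Of the shared ones, 99 in replicate 1 and 113 in replicate 2 lay inside peaks of the same replicate. The loci of Npr1, with 58.5% and 65.0% shared, and of Corin, with 17.1% and 33.3%, stood at the ends of the range. At least 1 shared footprint of each replicate lay in 50 of the 78 shared regions, or 64.1%, and in 67.5% of all shared regions. At the promoters themselves, shared footprints numbered 0 in each replicate for Nppa, 3 and 3 for Nppb, 3 and 3 for Nppc, 3 and 5 for Npr1, 4 and 2 for Npr2, 8 and 6 for Npr3, and 1 and 2 for Corin.

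The promoter regions and the 5 strongest shared regions of each locus, 41 in all, held 67 motif matches, and 27 of them overlapped a shared footprint. These were 21 of 34 KLF or SP matches, all 4 CTCF matches and 2 of 4 ETS matches. None of 7 GATA, 8 E-box, 3 TEAD, 2 MEF2, 1 TBX, 1 NKX2-5 and 1 SRF matches did. Matches in shared footprints were also uneven between motifs over all 104208 windows: 11621 of the 24566 windows with KLF or SP letters had one there, 5425 of 5877 with CTCF letters, 1690 of 5165 with ETS letters and 1738 of 25724 with GATA letters. Among these 4 motifs alone, as a share of each one's own matches or windows, CTCF stood highest, then KLF or SP, ETS and GATA. That order held in these 41 regions, with only 4 CTCF and 4 ETS matches, and in the genome. Of the other motifs searched, CREB, with 705 of 993 windows, and NF1, with 120 of 170, stood above KLF or SP in the genome. The member values count matches and those of the genome count windows. For E-box and TEAD letters, with none in the 41 regions, 5230 of 28574 and 2365 of 17686 windows had one. GATA letters stood in 24.4% of the 78 windows about the shared regions and in 24.7% of those about all shared regions in the genome.

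Replicate 1 had the higher signal in 66 of the 78 shared regions, and 80.8% of all shared regions were higher in replicate 1. As log2 of replicate 1 over replicate 2, the median ratio was 0.30 with an SD of 0.32 in the member loci, against 0.31 with an SD of 0.35 over all shared regions. By gene the median ran between 0.11 at Npr3 and 0.53 at Corin. The medians of the loci and of the whole data thus differed by far less than either SD, and the source of the difference between replicates was not tested. Regions found in 1 replicate alone had signals of 0.113 to 1.01.

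Genes that act before and after the receptors were mostly open. Of 31 genes in lists of the pathway, 26 had a promoter peak in both replicates, 83.9% against 68.8% of all protein-coding genes. The margin was smaller with the 5′ end of each gene alone and with the upper 50% of peaks, where 21 of the 31 were open against 64.2% and 62.3% of all genes. All 6 genes for processing and degrading the peptides were open, led by Ece1, an endothelin converting enzyme, at 8.59 in replicate 1 and 8.37 in replicate 2. Furin, the protease that cleaves the B-type precursor, had 4.96 and 7.52, and Mme, the gene of neprilysin, had 3.31 and 2.42. Ostn, whose product osteocrin competes for the clearance receptor, had no promoter peak in either replicate.

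The other sources of cyclic GMP split by type. The 3 genes of the soluble cyclase that nitric oxide activates were open, Gucy1b1 at 2.82 and 2.40, Gucy1a2 at 2.77 and 2.04, and Gucy1a1 at 2.01 and 1.88. Of 5 other membrane cyclases, Gucy2e alone had a peak in both replicates, at 0.447 and 0.686, Gucy2d and Gucy2g had one in replicate 1 only, at 0.546 and 0.411, and Gucy2c and Gucy2f had none. Npr1 and Npr2 thus had higher promoter signals than any of these 5, in both replicates.

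Downstream, both cyclic GMP-dependent kinases were open, Prkg1 at 2.13 and 2.00 and Prkg2 at 0.667 and 0.824. All 7 phosphodiesterase genes, whose products break down cyclic GMP, were open, led by Pde2a at 8.16 and 6.71, Pde5a at 5.63 and 5.09, and Pde3a at 4.90 and 4.97. So were all 7 genes of kinase targets, of which Ppp1r12a, a subunit of myosin phosphatase, had 15.2 and 17.8, Rgs2, which dampens G protein signalling, had 14.0 and 12.3, and Vasp, an actin regulator, had 5.00 and 3.69. The median of the 26 open genes was 2.70, above the 1.81 of the 7 members and below the 6.60 of all open genes.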

How the data were processed

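The members and gene lists were chosen with earlier results of these data known. Peak signal, read-depth scaled by the authors by a rule not stated, was taken from the larger of the 2 deposited peak sets, made per replicate on mm10, per the submitters' processing notes. The deposited p-value column (false discovery rates, FDR) lists runs of bases under 0.05. Footprint positions were used, while their constant score as deposited was not. The sources used here name no caller, caller version or read total, and do not say how reads from the second parent strain were mapped.

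Touching peaks were merged across replicates, and regions took the highest peak of each replicate. Steps were called whole within 0.02. Motifs were searched as exact letters on either strand: those spelled out with the results, the AP-1 site written TGANTCA, the CREB site written TGACGTCA, the ERR site written TCAAGGTCA, part of the REST site written TCAGCACC, and by name the MEF2, SRF CArG box, NF1, steroid receptor and CTCF consensus. The TATA letters were added with values known. Named items were the 7 members, their promoter peaks, the 5 strongest shared regions per locus and the genes there, and from each pathway list the 3 highest genes and those with no peak. Anything else named was picked with its value known. Results for 1 neighbouring gene are not reported here. No test was run. Intervals on simulated data were recovered as made. RefSeq sequences are of GRCm38.p6, and all 7 members matched. Alternatives covered peak sets, windows, flanks, thresholds and each replicate alone. Python 3.11.15, numpy 2.4.6, pandas 2.3.3, pysam 0.24.0 and matplotlib 3.10.9 were used.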

Additional observations from a re-analysis of the deposited data

How the results depend on the processing

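The count of open members was 7 in 4 of 6 alternatives with both replicates and in each replicate alone, 6 with the smaller peak set and 5 with the upper 50% of peaks by signal, and the cause was not tested. With those stronger peaks alone the median promoter signal of the members still open was 2.42, since the 2 lowest drop out by construction. The 78 shared regions became 21, 38 and 140 with flanks of 0, 10 and 100 kb, by construction, and 48 with the upper 50% of peaks. The shared footprints, 133 in replicate 1 and 140 in replicate 2, became 46 and 65 where the whole length had to be covered, 14 and 15 with a flank of 0 kb, and 57 and 58 with 10 kb. Taking a replicate alone, with no sharing required, gave 297 and 273 footprints. Bases under an FDR of 0.001 were 25512 in replicate 1, against 38436 under 0.05. Motif matches in footprints were 41 with all footprints of either replicate, against 27. The promoter signal of Nppc was 1.76 in a window of 500 bp and that of Npr2 was 3.84 in a window of 2 kb. Of 55 alternatives to the main values, 40 stayed within 1.5 times or 1 SD. The count of open pathway genes, 26, fell to 21 with the 5′ end of each gene alone and with the upper 50% of peaks. No paired analysis was possible because there is 1 group. Leaving out a replicate gave 7 open members either way, 26 to 28 open pathway genes, a median member signal of 1.41 to 2.21, and 98 to 109 regions. Depth is unknown, so how far missing peaks reflect it was not tested.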

Other observations

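Markers of other cell types of the heart were open beside those of muscle: all 4 of endothelium, all 4 of fibroblasts, both of smooth muscle, 2 of 3 of endocardium and 1 of 2 of leukocytes, with Ptprc at none. The share of all protein-coding genes open in both replicates was 68.8%. These markers were open or not by the same rule as Nppa, and their part in its low signal was not tested.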
